A study of Mus musculus with 6 samples.

Results

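Mitochondrial apoptosis was followed through 9 genes in the kidneys of newborn mice: the pore-forming effector Bax, the survival genes Bcl2, Bcl2l1 and Mcl1, the BH3-only genes Bbc3, Pmaip1 and Bcl2l11, the caspase inhibitor Xiap and its antagonist Xaf1. They were found through the RefSeq accession of each array probe, and all 9 were on the array, among 20659 genes that could be named this way. They were read by 12 of 39429 probes, with a pair of probes each for Bcl2l1, Mcl1 and Xaf1.

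The arrays labelled USP10 KO hold 3 kidney samples of neonates with a knockout of Usp10, a gene for a deubiquitinating enzyme. The arrays labelled USP10 WT hold 3 kidney samples of wild-type neonates. All are labelled male and were taken at 6 hours after birth. The sources used here do not give the removed part of Usp10, the cells that lack it or the strain. Kidney RNA was labelled with Cy3 and each sample was hybridised to 1 Agilent mouse array. Nothing states that the 3 samples of a group came from separate animals, so p-values measure only the spread between these samples, which may be technical.

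In the mitochondrial route of apoptosis, BH3-only proteins sense stress and either neutralise the survival proteins of the Bcl-2 family or activate Bax and Bak directly. Bax and Bak then open the outer mitochondrial membrane, cytochrome c leaves, and Apaf-1 assembles it into the apoptosome, which activates the initiator caspase and through it the executioner caspases. XIAP binds and blocks these caspases, and XAF1, the product of an interferon-induced gene, counteracts XIAP in human cells. In the kidney the pathway is best known from tubular injury and from the shaping of the developing nephron.

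Values are log2 of the background-subtracted signal minus that array's own 75th percentile, so 0 is the signal that 75% of the spots on the array stay below. A level therefore depends on the probe, and levels are compared between arrays and never between genes. Of 43020 non-control spots, the share well above background ran from 64.4% to 73.9% over the arrays, and no spot was saturated. The 75th percentile lay at signals of 473, 306 and 327 on the arrays labelled KO and 494, 489 and 582 on those labelled WT. Being lower on every array labelled KO, it raises their scaled values relative to the others. Before scaling, the signals of Bbc3 and of the brighter Bcl2l1 probe overlapped between the groups, and those of the brighter Xaf1 probe did not. Arrays with the same scan time were taken to share a slide: KO replicates 1 and 2 with WT replicates 2 and 3 on slide 1, and KO replicate 3 with WT replicate 1 on slide 2. Precision is limited by the number of arrays. Because RNA came from kidney tissue, fewer cells of a type and less RNA per cell cannot be told apart.

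The labels were checked against kidney markers, Usp10 and sex-linked genes. All 10 kidney markers, among them Lrp2, Wt1, Umod and Six2, were well above background on all 6 arrays. The Usp10 probe was higher on the arrays labelled KO, at 3.64, 3.37 and 3.56, against 3.01, 3.12 and 2.95 on the arrays labelled WT (log2 difference 0.50, limma adjusted p = 0.414). It may lie outside the deleted part and then checks nothing, so every direction below rests on the labels. The Y-linked gene Eif2s3y stood at 1.98 to 2.65 on the arrays labelled KO and at 1.14, -8.11 and 1.82 on WT replicates 1, 2 and 3. Xist, the RNA of the inactive X chromosome, was well above background on WT replicates 1 (-0.62) and 2 (0.43) and on no other array, although all samples are labelled male. WT replicate 1 thus carried both Y-linked and Xist signal. These signals are partly confounded with the labels, so their part in a difference cannot be told apart from that of the knockout. These sex-linked genes were singled out after their values were seen, and differences without each of these arrays are given below.

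Xaf1 was the single member with a limma adjusted p under 0.05, a call kept in 5 of 16 alternative settings given below. Its signal was 3.83-fold lower on the arrays labelled KO, while Bbc3, which encodes the BH3-only protein PUMA, had the next clearest separation, 1.63-fold higher, without passing the test. Bax, Bcl2 and Mcl1 had differences within 0.20 of 0 on the log2 scale, and Bcl2l1, Pmaip1, Bcl2l11 and Xiap had positive differences between 0.26 and 0.57, none of which passed. Of 21207 genes tested with limma, 0.0802% had an adjusted p under 0.05 (0.0613% lower and 0.0189% higher on the arrays labelled KO), against 1 of 9 members. The groups did not overlap for 4 members, 3 higher and 1 lower, where 18.2% of all genes had groups that did not overlap (10.2% higher, and 1696 genes lower). The median difference was 0.26 over the members and 0.031 over all genes tested. All 9 entered the test with a probe that was well above background on all 6 arrays.

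**Figure D1:**
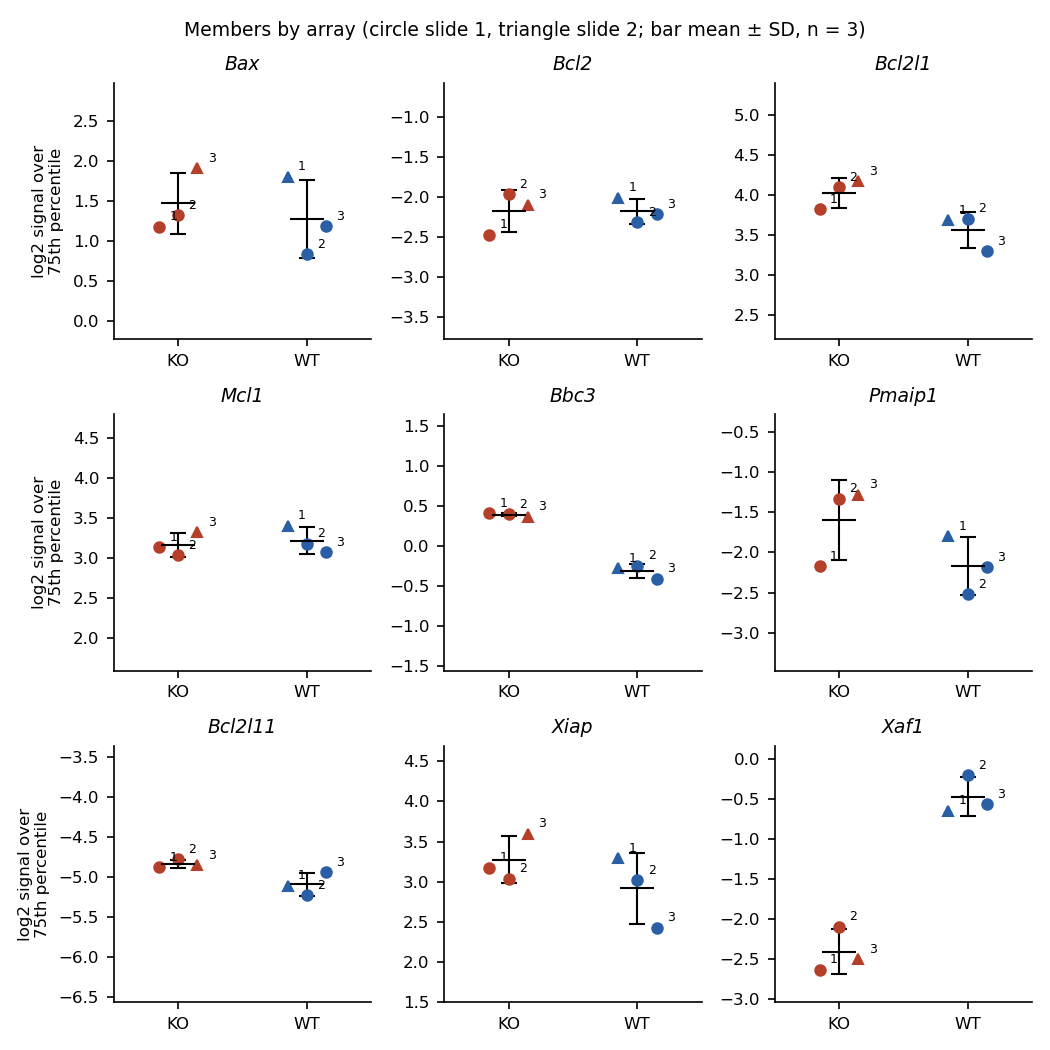
Each panel shows 1 member on an axis spanning 3.2 log2 units: log2 signal over the array's 75th percentile on the 3 arrays labelled KO (left) and the 3 labelled WT (right), numbered by replicate, with circles for slide 1 and triangles for slide 2. Bars are mean ± SD (n = 3). Xaf1 is low on all 3 arrays labelled KO (-2.63 to -2.10), Bbc3 is high on all 3 (0.36 to 0.41), and Bax, Bcl2, Mcl1, Pmaip1 and Xiap overlap.

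Bax (NM_007527) encodes the effector that oligomerises into the pore of the outer mitochondrial membrane. It stood at 1.18, 1.32 and 1.91 on KO replicates 1 to 3, against 1.81, 0.83 and 1.19 on WT replicates 1 to 3. The groups overlapped, and both arrays of slide 2, KO replicate 3 and WT replicate 1, were the highest of their group. The log2 difference was 0.19 ± 0.30 (SE), with a 95% interval from -0.51 to 0.90 (limma adjusted p = 0.814). It was 0.24 within slide 1 and 0.10 within slide 2, and -0.027 without WT replicate 2, so that no direction can be given.

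Among the survival genes, Bcl2 and Mcl1 did not separate the labels. Bcl2 (NM_177410), the founding member of the family and an inhibitor of Bax and Bak, averaged -2.17 ± 0.26 on the arrays labelled KO and -2.17 ± 0.16 on those labelled WT (SD, n = 3 each). Its 95% interval ran from -0.45 to 0.46, and its sign changed with the scaling. Mcl1 (NM_008562) encodes a short-lived survival protein that BH3-only proteins such as NOXA remove. It averaged 3.17 ± 0.15 on the arrays labelled KO and 3.22 ± 0.17 on those labelled WT (SD, n = 3 each), with an interval from -0.46 to 0.35. The dimmer Mcl1 probe had a difference of -0.11 beside -0.055 for the brighter.

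Bcl2l1 (NM_009743) encodes BCL-XL and its short splice form, and the probes were not matched to a form. Its brighter probe stood at 3.82, 4.10 and 4.17 on the arrays labelled KO, against 3.69, 3.70 and 3.30 on those labelled WT. All 3 arrays labelled KO lay above all 3 labelled WT. Its log2 difference came to 0.47 ± 0.19 (SE), with an unadjusted p of 0.0439 and a limma adjusted p of 0.475, and it was 0.45 within slide 1 and 0.49 within slide 2. The dimmer probe, with scanner signals between 16.5 and 27.4, overlapped between the groups. Its difference was 0.35 ± 0.22 (SE, limma adjusted p = 0.577 over all probes).

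The BH3-only genes all had positive differences, and none passed the test. Bbc3 (NM_133234), whose product PUMA binds every survival protein of the family and which p53 and FOXO factors induce, stood at 0.41, 0.40 and 0.36 on KO replicates 1 to 3, against -0.28, -0.25 and -0.41 on WT replicates 1 to 3. Both groups were tight and lay apart, with SDs of 0.023 on the arrays labelled KO and 0.086 on those labelled WT. The log2 difference was 0.70 ± 0.15 (SE), with an interval from 0.35 to 1.05 and rank 176 of 21207 by p (unadjusted p = 0.00193, limma adjusted p = 0.233, 0.115 with slide as a block). It was 0.73 within slide 1 and 0.64 within slide 2, and between 0.65 and 0.74 whichever array was left out.

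Pmaip1 (NM_021451) encodes NOXA, a p53-induced partner of MCL-1. It stood at -2.17, -1.33 and -1.28 on KO replicates 1 to 3, against -1.79, -2.52 and -2.18 on WT replicates 1 to 3. KO replicate 1 lay below WT replicate 1, so the groups overlapped. The log2 difference was 0.57 ± 0.30 (SE, limma adjusted p = 0.523), with an interval from -0.13 to 1.27, and it ran from 0.39 without WT replicate 2 to 0.86 without KO replicate 1.

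Bcl2l11 (NM_207680) encodes BIM, a BH3-only protein that FOXO factors induce. It stood at -4.88, -4.78 and -4.85 on the arrays labelled KO, against -5.11, -5.23 and -4.94 on those labelled WT. The groups did not overlap, and KO replicate 1 and WT replicate 3 were the closest arrays. KO minus WT was 0.26 ± 0.16 (SE, limma adjusted p = 0.564) and 0.26 within each slide. Its probe was dim, with scanner signals between 11.1 and 18.9, and with normexp background correction the difference was 0.41, or 0.26 relative to the median of all genes, and with quantile normalisation it was 0.15.

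**Figure D2:**
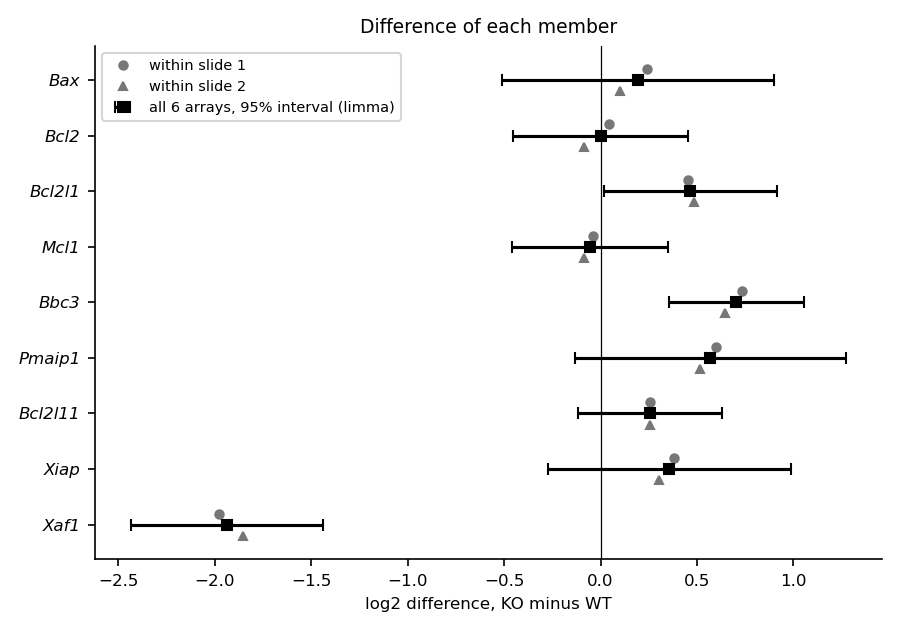
Log2 difference, KO minus WT, of each member: squares with bars are the limma estimate over all 6 arrays with its 95% interval, circles and triangles the difference within slide 1 and slide 2. The interval lies below 0 for Xaf1 (-2.44 to -1.44) and above 0 for Bbc3 (0.35 to 1.05) and Bcl2l1 (0.016 to 0.91), before any adjustment for the number of genes.

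For Bbc3 and Bcl2l11 the start regions hold the FOXO motif GTAAACA, searched on both strands in the RefSeq windows from 250 bases before to 50 after each annotated start (GRCm38.p6). The motif lies in 3.65% of 32851 such windows and in 2 of the 15 windows of the 8 members with an entry. The stretches are shown because both genes are known FOXO targets in mouse cells, with the motif or its reverse complement in capitals. That of Bbc3 is chr7:16310071-16310120 (plus strand) and that of Bcl2l11 chr2:128125788-128125837 (plus strand).
Bbc3: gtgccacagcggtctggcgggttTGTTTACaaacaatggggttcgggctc
Bcl2l11: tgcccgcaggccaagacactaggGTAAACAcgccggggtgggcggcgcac
A match describes letters and shows no binding. Foxo1, which encodes one of these factors, stood at 0.57 ± 0.067 on the arrays labelled KO and 0.82 ± 0.10 on those labelled WT (SD, n = 3 each; limma adjusted p = 0.559). Its difference of -0.25 was -0.053 with the mean of its probes.

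Xiap (NM_009688), on the X chromosome, encodes a direct inhibitor of caspases. It stood at 3.18, 3.04 and 3.60 on KO replicates 1 to 3, against 3.30, 3.02 and 2.43 on WT replicates 1 to 3. The groups overlapped, and WT replicate 3 was the lowest array. The estimate was 0.36 ± 0.27 (SE, limma adjusted p = 0.625), with an interval from -0.27 to 0.99. It depended on WT replicate 3: the difference was 0.11 without that array and 0.85 against that array alone. WT replicate 2, the array with Xist and without Y-linked signal, lay within the range of the others, and without it the difference was 0.41.

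Xaf1 (NM_001037713, chromosome 11) encodes a zinc-finger protein that binds XIAP and counteracts it in human cells. Its brighter probe stood at -2.63, -2.10 and -2.51 on KO replicates 1 to 3, against -0.65, -0.20 and -0.57 on WT replicates 1 to 3. Every array labelled KO lay below every array labelled WT, and the difference was larger than the spread within either group. The log2 difference was -1.94 ± 0.21 (SE), with an interval from -2.44 to -1.44 (limma adjusted p = 0.0449, 0.0359 with slide as a block). Within slides 1 and 2 it was -1.98 and -1.86.

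The dimmer Xaf1 probe gave the same direction with a smaller and less certain difference. It stood at -6.16, -4.93 and -4.93 on the arrays labelled KO, against -4.04, -3.72 and -4.54 on those labelled WT, and on KO replicate 1 it was not well above background. The groups did not overlap, and the difference was -1.25 ± 0.38 (SE, limma adjusted p = 0.408 over all probes). With the mean of both probes the difference was -1.59 and no longer passed (adjusted p = 0.130). With normexp background correction the brighter probe gave -1.29, or -1.43 relative to the median of all genes, which that correction moved to 0.14, and it passed (adjusted p = 0.0478).

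The size of the Xaf1 difference held when arrays were left out, and its call did not. Without KO replicates 1, 2 and 3 the difference was -1.83, -2.09 and -1.89, and without WT replicates 1, 2 and 3 it was -2.03, -1.80 and -1.99, with limma adjusted p between 0.0786 and 0.256. It was -1.84 against WT replicate 3 alone, which among the WT arrays had Y-linked signal and no Xist above background (adjusted p = 0.599, with the spread taken from the arrays labelled KO).

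Xaf1 ran parallel to several other interferon-induced genes. Of 12 genes on a list of such genes 10 could be tested, and all 10 had a negative difference. At a limma adjusted p under 0.05, 3 were lower, where 0.0613% of all genes were. The list median was -2.08, where the median of all genes was 0.031. The list was put together with earlier results of these arrays known and is not independent evidence of its direction. Oasl2, an oligoadenylate synthetase-like gene, stood at -1.69, -1.64 and -1.68 on the arrays labelled KO, against 1.36, 1.90 and 1.15 on those labelled WT. Ifit1, which encodes a sensor of foreign RNA caps, stood at -3.83, -2.85 and -3.47 on the arrays labelled KO, against -0.65, 0.20 and -0.49 on those labelled WT. WT replicate 2 was the highest array for Xaf1, Oasl2, Ifit1 and Oas1a alike, and KO replicate 1 the lowest. Over the 16 alternatives Oasl2 passed in 8, and Ifit1 and Oas1a in 5 each, and with normexp the Ifit1 difference was -1.89.

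Over the 6 arrays the named genes closest to Xaf1 were Ifit1 (Pearson r = 0.999), Map4k1 (0.998), Oas1a (0.995), Ifi27l2a (0.994) and Iqcc (0.994), out of 15184 compared. These arrays share their groups, slides and scaling, so the values only describe a shape. Map4k1 and Iqcc had differences of -0.22 and -0.32 (limma adjusted p = 0.584 and 0.497), while Ifit1, Oas1a and Ifi27l2a had differences of -3.07, -2.04 and -3.15 (limma adjusted p = 0.0449 for each).

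**Figure D3:**
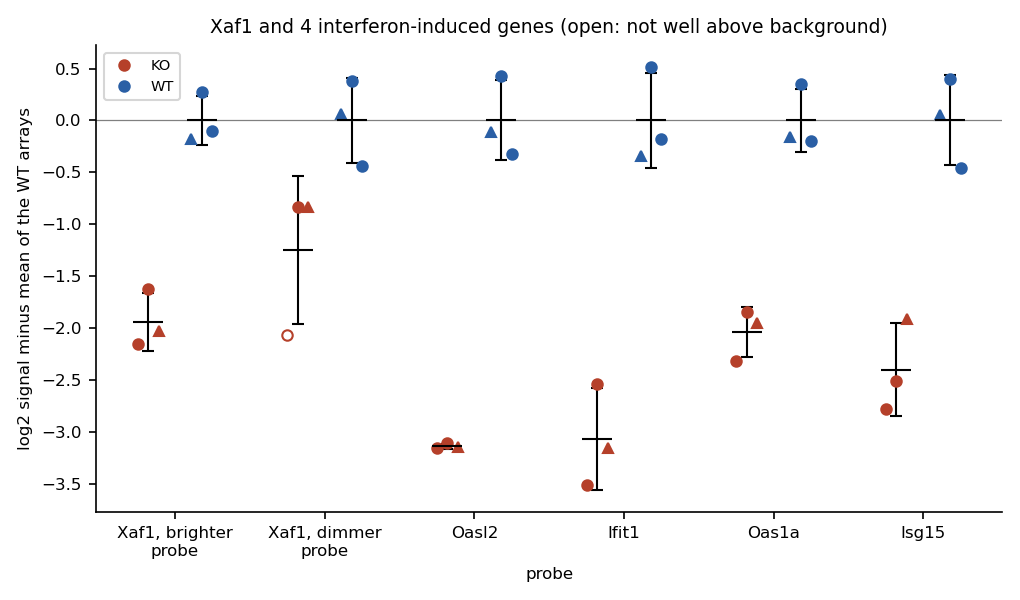
Log2 signal of both Xaf1 probes and of Oasl2, Ifit1, Oas1a and Isg15 on each array, minus the mean of the arrays labelled WT for that probe; arrays labelled KO are left of those labelled WT, circles are slide 1, triangles slide 2, and bars are mean ± SD (n = 3). The brighter Xaf1 probe falls by 1.94 on average and the dimmer by 1.25, where Oasl2 falls by 3.14.

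The Xaf1 start region was read for the interferon-stimulated response element, because Xaf1 moved with interferon-induced genes. Its core, searched on both strands as 2 copies of GAAA with 2 bases between them, lies in 3.44% of the 32851 windows, in the window of Ifit1 and of Oas1a at 2 places each, overlapping in Oas1a, and in none of the 15 windows of the members. The Xaf1 window holds a pair of GAAA with 1 base between them, GAAANGAAA, which was searched only after the sequence had been read. This pair lies in 3.17% of all windows and in 2 of the 15 windows of the members, those of Xaf1 and Bcl2l1. Matches are in capitals. The stretches are chr11:72301459-72301658 for Xaf1 (plus strand, base -170 to base 30 from the start), chr19:34640779-34640858 for Ifit1 (plus strand) and chr5:120907526-120907565 for Oas1a (minus strand), from RefSeq on GRCm38.p6.
Xaf1: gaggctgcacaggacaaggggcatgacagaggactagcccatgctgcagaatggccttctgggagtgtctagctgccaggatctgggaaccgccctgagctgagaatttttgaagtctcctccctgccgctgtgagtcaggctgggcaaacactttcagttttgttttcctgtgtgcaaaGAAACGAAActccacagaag
Ifit1: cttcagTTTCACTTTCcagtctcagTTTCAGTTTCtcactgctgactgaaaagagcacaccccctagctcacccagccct
Oas1a: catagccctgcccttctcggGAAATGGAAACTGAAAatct
The pair in Xaf1 begins at base 11 of the annotated transcript, and the matches of Ifit1 and Oas1a lie before their starts.

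Leukocyte markers were read as the other cells that a kidney sample can hold. Of 8 leukocyte markers 7 could be tested. All 7 had a negative difference, with a median of -0.64, where 9828 of 21207 genes had a negative difference. Only 1 passed, Cpa3, a mast cell gene, where 0.0613% of all genes passed in that direction. Cpa3 entered the test only through the arrays labelled WT, since it was above background on 0 of the 3 arrays labelled KO and 3 of the 3 labelled WT, so a difference was built into its selection. It was at least 1.77-fold lower, a bound that sets the brighter group's mean against the dimmest signals called above background. This bound was not tested. The limma adjusted p of 0.0449 belongs to the difference computed with the signals not above background, and with normexp the Cpa3 difference was 0.071. The macrophage genes Cx3cr1 and C1qa had differences of -1.58 ± 0.21 and -0.77 ± 0.21 (SE, limma adjusted p = 0.0609 and 0.355), which were -0.62 and -0.048 with normexp. With slide as a block Cx3cr1 passed (limma adjusted p = 0.0360), where 0.273% of all genes did. Adgre1, another macrophage gene, had a difference of -0.64 ± 0.34 (SE, limma adjusted p = 0.524), with groups that overlapped. Csf1r, Ptprc and Cd3e had differences between -0.11 and -0.0082, with groups that overlapped. The summed level of the 8 markers, as signal over the 75th percentile, was 5.02 to 5.62 on the arrays labelled KO and 5.71 to 6.71 on those labelled WT. Csf1r alone made up 72.3% to 79.9% of this sum on the arrays labelled KO and 68% to 74.2% on those labelled WT. Without Csf1r the sum was 1.13 to 1.47 on the arrays labelled KO and 1.55 to 1.83 on those labelled WT. The part of any of these cells in the Xaf1 difference was not tested.

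No marker of neighbouring tissues passed the test. The 3 liver markers summed to 26.5 to 31.9 on the arrays labelled KO and 19.0 to 25.9 on those labelled WT, but Afp (0.42) and Apoa2 (0.26) had positive differences and Alb a negative one (-1.59). Of 4 adrenal markers Cyp11b1 was above background on 4 arrays, Star on 3, and Cyp11a1 and Cyp11b2 on none. The muscle gene Acta1 was above background on all 6 arrays, with a difference of -0.79 (limma adjusted p = 0.520), while Ckm and the fat gene Adipoq were above background on none.

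The rest of the mitochondrial route showed no gene past the test. The 7 lists of pathway genes held 57 genes, of which 55 were on the array and 50 could be tested. At an adjusted p under 0.05 limma called 0, with or without slide as a block, and 7 had an unadjusted p under 0.05, where 10.4% of all genes did. The median of the 50 differences was 0.011, with 26 positive and 24 negative.

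Other genes of the Bcl-2 family split in both directions. Of 11 tested effectors and BH3 proteins 6 had positive and 5 negative differences. Bad, a BH3-only protein controlled by growth factor signalling, had a difference of -0.38 ± 0.16, and Bak1, the effector that works beside Bax, one of -0.30 ± 0.17 (SE, limma adjusted p = 0.482 and 0.535). For both, all arrays labelled KO lay below all labelled WT, and with the mean of its probes Bad was -0.22. Bcl2a1d, a survival gene of leukocytes that shares near-identical copies with its paralogs, had -0.93 ± 0.32 (adjusted p = 0.431), with -0.12 under normexp and -0.57 without KO replicate 2.

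Of 6 genes of the apoptosome and caspases, 3 had positive and 3 negative differences. Casp8, the initiator of the death receptor route, had a difference of -0.57 ± 0.21, and Casp6, an executioner caspase gene, had -0.45 ± 0.18 (SE, limma adjusted p = 0.442 and 0.469). Both were lower on every array labelled KO than on any labelled WT, and with normexp Casp8 was -0.32. Cycs, which encodes cytochrome c, had a difference of 0.36 ± 0.20 (SE, limma adjusted p = 0.529), and its reported probe was higher on all 3 arrays labelled KO than on any labelled WT. That difference was 0.087 with the mean of its probes and 0.21 without WT replicate 3.

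Of the other inhibitors of apoptosis and their antagonists 7 of 8 were tested, and their differences lay between -0.31 and 0.19. The lowest was Diablo, which encodes the mitochondrial antagonist of XIAP also called Smac (limma adjusted p = 0.534), and with the mean of its probes it was -0.11. Among 8 genes of mitochondrial release and execution the smallest p was that of Parp1, a DNA repair gene whose product is cleaved in apoptosis, at -0.53 ± 0.23 (SE, limma adjusted p = 0.481). Trp53, the gene of p53, had a difference of -0.43 ± 0.22 (SE, adjusted p = 0.519), which was 0.032 with normexp.

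The death receptor arm, which meets the mitochondrial route at caspase 8, held the pathway gene with the smallest p. Fas, the gene of the CD95 receptor and a p53 target, stood at 0.80, 0.77 and 0.77 on the arrays labelled KO, against -0.49, -0.11 and -0.62 on those labelled WT. Its difference of 1.19 ± 0.18 (SE) did not pass (limma adjusted p = 0.0886, 0.0629 with slide as a block). Cflar, an inhibitor of caspase 8, had 0.66 ± 0.21 and its partner Fadd, the adaptor of the receptor complex, -0.66 ± 0.20 (SE, adjusted p = 0.403 and 0.404). Over the 7 genes of this arm the median was 0.35.

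Bbc3, Pmaip1, Bax and Fas are known p53 targets, and other targets were set beside them. Of 10 on a list chosen with earlier results known 9 were tested, all 9 had a positive difference and 0 passed. Of these, 6 had an unadjusted limma p under 0.05, where 10.4% of all genes did in either direction. The list median was 0.63. With slide as a block 2 passed, Zmat3 and Trp53inp1, where 0.273% of all genes did. Zmat3, which encodes an RNA-binding protein, had a difference of 1.37 ± 0.17 (SE, limma adjusted p = 0.0530), and the cell cycle inhibitor Cdkn1a 1.30 ± 0.20 (adjusted p = 0.0886). The differences of Bbc3 (0.70) and Pmaip1 (0.57) lay near the median of this list and that of Bax (0.19) below its lowest member (0.22). The p53 half-site, searched on both strands, lies in 8.36% of the 32851 RefSeq windows. It lies in 2 of the 15 windows of the 8 members with an entry, those of Bax and Xaf1, and not in those of Bbc3.

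**Figure D4:**
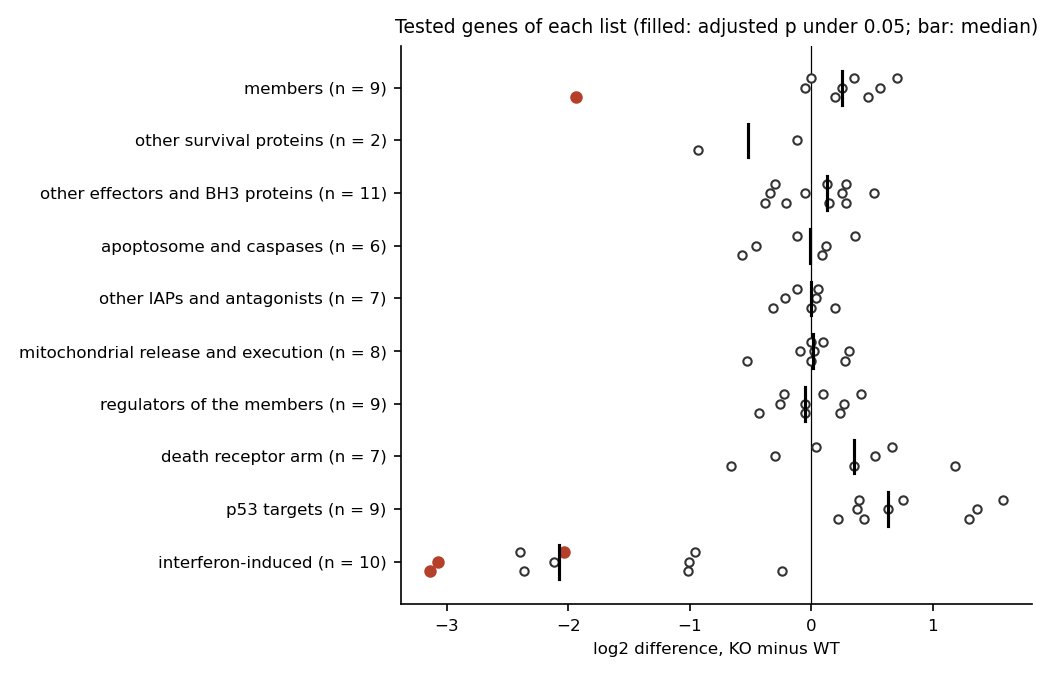
Log2 difference, KO minus WT, of every tested gene of the members and of 9 lists; each point is a gene, filled where the limma adjusted p is under 0.05, and the upright bar is the list's median. Xaf1 is the only filled point among the members, with 3 more among interferon-induced genes, and the p53 targets lie between 0.22 and 1.58.

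Member differences were recomputed under other processing. Bbc3 lay between 0.60 and 0.80 and Xaf1 between -2.09 and -1.29 in the 16 alternatives tried, while Bax, Bcl2 and Mcl1 took both signs.

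**Figure D5:**
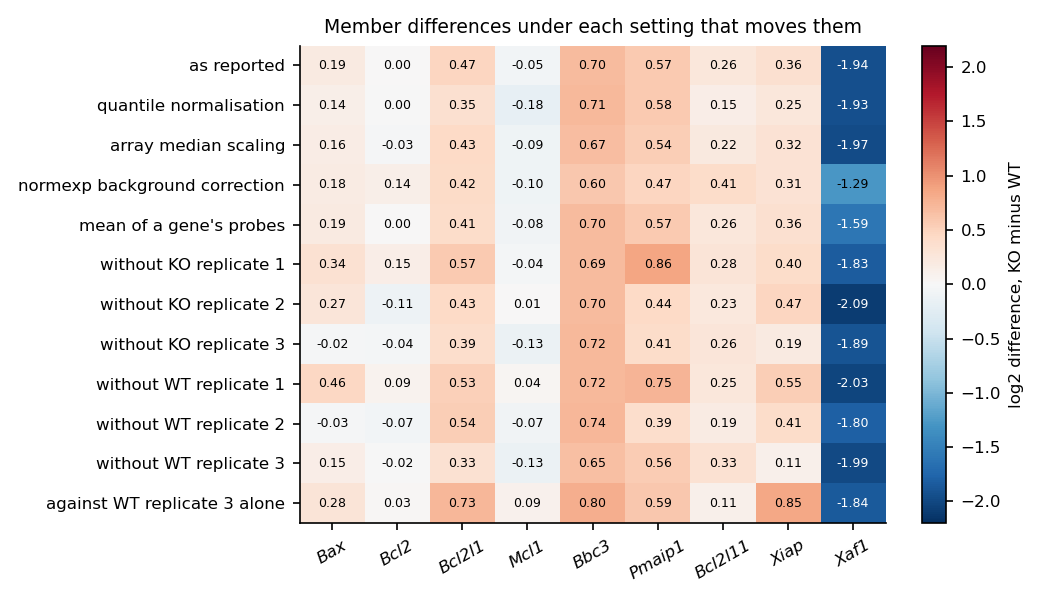
Log2 difference, KO minus WT, of each member (columns) as reported and under each setting that changes the estimate (rows), coloured on a scale centred on 0 with the value printed. Xaf1 is negative and Bcl2l1, Bbc3, Pmaip1, Bcl2l11 and Xiap positive in every row shown, and Xiap runs from 0.11 without WT replicate 3 to 0.85 against that array alone.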

How the data were processed

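Kidney RNA of 6 neonatal samples was read on 1-colour arrays. The deposited intensity is linear and background-subtracted by Feature Extraction (11.0.1.1, per the file headers; the submitters' processing notes give 9.1), and is not normalised between arrays. Of 44397 spots per array 1377 controls and those flagged as outliers were left out. Log2 intensity minus the array's 75th percentile was averaged over the spots of a probe. A RefSeq table (GRCm38.p6) named 69.1% of probes. The array design is on mm9, so no coordinates were taken from the table other than those of the RefSeq sequences. Probes needed to pass the scanner software's background flag on every array of KO or of WT, and each gene was read from its brightest such probe. limma 3.58.1 in R 4.3.3 (lmFit, eBayes, two-sided, Benjamini-Hochberg over 21207 genes, threshold 0.05) compared the labels, and was tested on simulated data. With 3 arrays against 3 an exact permutation test of a single value cannot go below p = 0.1.

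The members, the lists and the alternatives were chosen with earlier results of these data known. The text names all members with every probe, up to 4 genes with the smallest p of each list, and the 5 genes most like each called member. The alternatives were other scalings, normexp with an offset of 50 on the median signals, other filters on dim probes, the mean of probes, an intensity trend, replicate and slide blocks, and leaving out arrays. The fit against WT replicate 3 alone was added after the data were seen. Some genes of the pathway lists are not reported here and were left out of the list counts.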

Additional observations from a re-analysis of the deposited data

How the results depend on the processing

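Xaf1 was negative in every alternative and passed in 5 of 16, namely quantile normalisation, array median scaling, normexp, the intensity trend and slide as a block. It lost its call with no filter on dim probes (limma adjusted p = 0.231), with probes above background on all 6 arrays (0.0516), with the mean of probes, with the replicate block (0.145) and without any one array, so that the count of members called was 0 there and against WT replicate 3 alone, with 2 to 4 members at an unadjusted p under 0.05. No other member passed in any alternative. The count of 17 genes was 0 with no filter (limma, 2051 genes at an unadjusted p under 0.05), 0 with the replicate block (1611) and 0 against WT replicate 3 alone (1838). It was 1 with the stricter filter, 1 with the mean of probes, 45 with the trend, 58 with the slide block, and 0 to 13 without 1 array, where 1072 to 2701 genes had an unadjusted p under 0.05. Fewer arrays remained in the fits that left arrays out, and for the other settings the cause was not tested.

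Signs turned for Bax, Bcl2 and Mcl1, whose differences lay near 0, and for Trp53 and Cpa3. Bcl2 was -0.0017 with quantile normalisation and -0.032 with array median scaling, Mcl1 0.094 against WT replicate 3 alone, and with normexp Trp53 was 0.032 and Cpa3 0.071. Leaving out 1 array gave ranges of -0.11 to 0.15 for Bcl2, -0.13 to 0.039 for Mcl1 and -0.027 to 0.46 for Bax. Bcl2l11, the dimmer probes of Bcl2l1 and Xaf1, and Cpa3 lay close to background, which limits the sizes of their differences. Deviations of same-numbered arrays from their group means correlated at -0.40, 0.48 and -0.60 over genes. These values followed the slides. A KO and a WT array correlated at 0.12 to 0.89 within a slide and at -0.60 to -0.40 across slides. The highest value was that of KO replicate 3 with WT replicate 1, which were taken to share a slide. The check therefore cannot tell whether the replicate numbers paired the samples.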
